A study of Drosophila melanogaster with 18 samples.

Results

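The zygotic gap and terminal genes described here are Krüppel (Kr), knirps (kni), knirps-related (knrl), giant (gt), tailless (tll), huckebein (hkb) and buttonhead (btd). They were listed by their FlyBase symbols, and all 7 were found among the 17994 rows of the RNA table, of which 17768 were gene IDs. These genes and the gene lists below were chosen with earlier results of these data known. Counts of them set beside the share of all features therefore describe and do not test. All 7 also passed the filter on low values, set at 1 normalised read or more in 3 libraries or more. The study compared Drosophila melanogaster embryos of mothers depleted of Piwi, a small RNA binding protein of the Argonaute family, with controls. Whole embryos were collected from 0 to 1.5 h of age at 25 °C, and RNA and small RNA were each sequenced in 3 libraries from every group. In the control group, GFP-MatKD, the labels give the maternal genotype as 41550/MAT-Gal4, and in Piwi-MatKD_1 and Piwi-MatKD_2 as 37483/MAT-Gal4 and THU/MAT-Gal4. Fathers were w1118 in all 3 groups, and every mother carried the MAT-Gal4 driver, which is active in the female germ line and drives a UAS-shRNA, a hairpin RNA that silences its target. The growth protocol names females with the UAS-shRNA and males with MAT-GAL4. Daughters of such a cross would have the maternal genotype of the labels, so both statements can hold for successive generations. Each Piwi knockdown is 1 hairpin line. Nothing in the labels says that replicates came from separate cultures, so p-values measure the spread between these samples, which may be technical.

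In the early fly embryo, maternal gradients of Bicoid and Caudal and the receptor Torso at both poles switch on the gap and terminal genes in broad bands. Their products are transcription factors that repress one another, set the position of pair-rule stripes and so divide the body axis. They are among the earliest genes that the embryo's own nuclei transcribe, with the help of the maternal activator Zelda, and their RNA rises steeply over the first hours of development.

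Kr, kni and gt are gap genes of the trunk. Kr encodes a zinc finger repressor of the central band, kni a repressor of the nuclear receptor family in the future abdomen, and gt a bZIP repressor in an anterior and a posterior band. The gene knrl is a paralog of kni with a similar pattern. In RefSeq's Release 6 plus ISO1 MT assembly, kni (FBgn0001320) lies at 3L:20692330-20695378 and knrl (FBgn0001323) at 3L:20597141-20620659, with 71670 bp between them. The gt gene (FBgn0001150) lies at X:2427113-2428967, and Kr (FBgn0001325) lies on arm 2R. The terminal genes tll (FBgn0003720, 3R:30852315-30854400), an orphan nuclear receptor, and hkb (FBgn0261434, 3R:4345015-4346646), a zinc finger repressor, act at both poles downstream of Torso. The head gap gene btd (FBgn0000233, X:9694186-9697558) encodes a zinc finger factor of the Sp family.

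Per RNA library, 16.5 to 45.0 M reads (M for 1000000) were counted for the GFP-MatKD controls and 20.2 to 61.2 M for Piwi-MatKD_1. The Piwi-MatKD_2 libraries are named here by their totals of 21.6, 8.5 and 73.0 M. The RNA of piwi, the targeted gene, averaged 8748 ± 715 normalised reads (SD, n = 3) in controls, 355 ± 85.7 in Piwi-MatKD_1 embryos and 305 ± 299 in Piwi-MatKD_2 embryos. Libraries also stood apart from their groups. Nuclear ribosomal RNA took 10.9% and 5.90% of the reads in the 21.6 M and 8.5 M Piwi-MatKD_2 libraries and at most 0.535% in the other 7. The 7 germ plasm and egg markers, among them bcd, osk and CycB, were present in every library, with a summed level of 183982 to 189907 in controls, 190766 to 192898 in Piwi-MatKD_1 and 195799 to 206712 in Piwi-MatKD_2. Of 16 markers of late embryos (muscle, neuron and blood cell genes), Tm1 was high in all groups. The other 15 summed to 117 to 158 normalised reads in controls, 86.7 to 133 in Piwi-MatKD_2, and 207, 2196 and 99.6 in Piwi-MatKD_1 replicates 1, 2 and 3. In controls and Piwi-MatKD_2 these sums rested largely on few genes. The mean of elav was 95.1 and 38.8 in these groups, and that of bt 15.3 and 42.1. The myosin light chain gene Mlc1 was at 0 in every library except Piwi-MatKD_1 replicate 2, where it reached 59.4, so this library held RNA of muscle genes. The 9 follicle cell and adult female markers summed to between 5.79 and 13.0 normalised reads over all libraries.

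The 7 genes were lower in Piwi-MatKD_2 than in every library of the other groups, whereas Piwi-MatKD_1 and GFP-MatKD overlapped for each of them. Their summed level was 1236, 528 and 809 normalised reads in controls replicates 1, 2 and 3, and 568, 871 and 697 in Piwi-MatKD_1 replicates 1, 2 and 3. In Piwi-MatKD_2 it was 28.2, 225 and 138 in the 21.6, 8.5 and 73.0 M libraries, or 15.2% of the GFP-MatKD mean. Complete separation towards lower values in Piwi-MatKD_2, 7 of 7 genes, was found for 12.9% of all features against GFP-MatKD and for 9.63% against Piwi-MatKD_1. Among features whose control mean lay in the range of the 7 genes, these shares were 22.2% and 17.3%. In whole embryos, fewer nuclei that express a gene and less RNA per nucleus cannot be told apart. The labels give the collection window of each library but not the age of its embryos within that window. The part of embryo age in these differences was not tested.

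**Figure D1:**
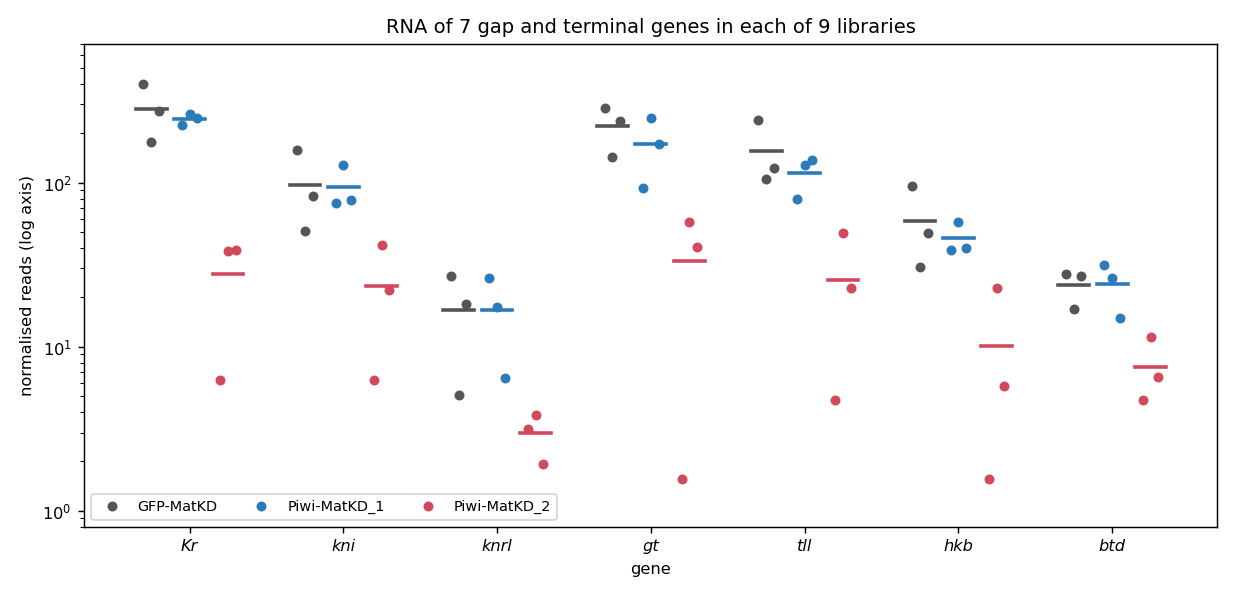
Normalised reads (log axis) of the 7 gap and terminal genes in each RNA library, as points coloured by group with a bar at the group mean (3 libraries a group). In Piwi-MatKD_2 the 3 points of each gene lie below every GFP-MatKD and Piwi-MatKD_1 point, and the lowest, for gt and hkb, is at 1.57.

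Kr was the gene with the clearest difference. Its normalised reads were 401, 176 and 272 in controls, 224, 262 and 247 in Piwi-MatKD_1, and 6.28, 38.1 and 38.7 in Piwi-MatKD_2. All Piwi-MatKD_2 values lay below the lowest value elsewhere, 176, and rested on 4, 10 and 100 reads. The mean in Piwi-MatKD_2 was 27.7 ± 18.6 (SD, n = 3), which is 9.79% of the GFP-MatKD mean of 283 ± 113. In limma, with Benjamini-Hochberg adjustment over 10767 features, Kr fell by 3.58 on the log2 scale against GFP-MatKD (SE 0.62, adjusted p 0.0161). It was the only one of the 7 genes to pass the threshold of 0.05, and 3.04% of all features passed it, 1.42% as lower. The call was lost without GFP-MatKD replicate 1 (adjusted p 0.0935), without GFP-MatKD replicate 3 (adjusted p 0.0777) or with the 2 groups fitted alone (adjusted p 0.0536), at log2 differences of -3.29, -3.57 and -3.58. On the recovered reads, edgeR also called Kr alone (3.77% of all features called), DESeq2 called 6 genes, all but knrl (8.36%), and limma with array quality weights called all 7 (17%), while the groups fitted alone gave 0 (2.09%).

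Both kni and knrl were also lowest in Piwi-MatKD_2 but did not pass. The gene kni was at 158, 50.9 and 82.5 normalised reads in controls, 75.6, 129 and 78.8 in Piwi-MatKD_1, and 6.28, 41.9 and 22.1 in Piwi-MatKD_2. Its Piwi-MatKD_2 mean of 23.4 ± 17.9 was 24.1% of the control mean, and its highest value there, 41.9 on 11 reads, came close to the lowest control value. The log2 difference was -2.19 (SE 0.65, adjusted p 0.129 in limma). Its neighbour and paralog knrl was scarcer, at 27.0, 5.09 and 18.2 in controls, 26.2, 17.4 and 6.45 in Piwi-MatKD_1, and 3.14, 3.81 and 1.93 in Piwi-MatKD_2. Only 2, 1 and 5 reads stood behind the last 3 values, and the nearest control library, GFP-MatKD replicate 2, had 3 reads, so the separation of the groups rests on counts too low to set these libraries apart. The log2 difference of knrl was -1.94 (SE 0.66, adjusted p 0.194 in limma).

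On the log2 scale of the limma fit, gt had the largest standard error of the 7 genes. It was at 287, 143 and 237 normalised reads in controls, 92.5, 249 and 173 in Piwi-MatKD_1, and 1.57, 57.2 and 40.6 in Piwi-MatKD_2. A single read stood behind the 1.57 of the 21.6 M library, beside 15 and 105 reads in the others, so this 1 library lay far below the rest. The log2 difference of gt, -3.54, was close to that of Kr, but its standard error of 1.03 was larger and its adjusted p in limma was 0.121. Without the 21.6 M library, the log2 difference of gt was -2.12 (adjusted p 0.0364 in limma) and that of Kr -2.77 (adjusted p 0.00195).

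The terminal genes showed the same order of groups. The normalised reads of tll were 241, 105 and 123 in controls, 79.1, 129 and 137 in Piwi-MatKD_1, and 4.71, 49.6 and 22.8 in Piwi-MatKD_2. Its mean in Piwi-MatKD_2 was 16.4% of the control mean (log2 difference -2.95, SE 0.71, adjusted p 0.0675 in limma). The values of hkb were 94.9, 30.5 and 49.5 in controls, 39.1, 57.9 and 40.1 in Piwi-MatKD_1, and 1.57, 22.9 and 5.80 in Piwi-MatKD_2, on 1, 6 and 15 reads in the last group. For hkb the mean was 17.3% of the control (log2 difference -2.84, SE 0.75, adjusted p 0.0911 in limma). The pair thus lay between Kr and kni in size, and neither passed the threshold.

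The head gap gene btd had the smallest difference. It was at 27.6, 17.0 and 26.9 normalised reads in controls, 31.6, 26.1 and 15.0 in Piwi-MatKD_1, and 4.71, 11.4 and 6.58 in Piwi-MatKD_2. The Piwi-MatKD_2 mean was 31.8% of the control mean, and its log2 difference was -1.58 (SE 0.43, adjusted p 0.103 in limma). At an unadjusted p under 0.05, all 7 genes were lower in Piwi-MatKD_2 than in GFP-MatKD, beside 8.99% of all features. The median log2 difference was -2.84 over the 7 genes and -0.04 over all features. The median of the 7 was -2.07 without the 21.6 M library and -3.66 without the 8.5 M library. Without the former, kni was at -1.49, tll at -2.08 (adjusted p 0.0452 in limma) and hkb at -2.07, and 3 genes passed, Kr, gt and tll. Over the fits that each left out 1 library, 1.1% to 3.76% of all features passed. Among the 1651 features whose control mean lay between the 7 genes' lowest and highest, 4.06% passed the threshold as lower and their median was -0.12.

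**Figure D2:**
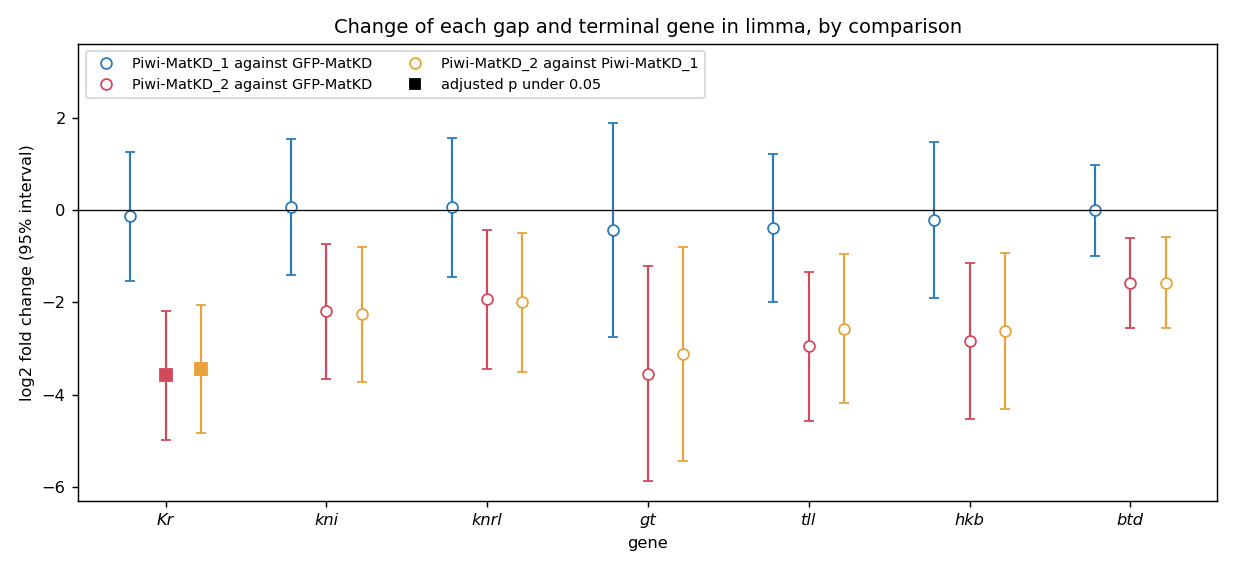
Log2 fold change of each gene in limma for the 3 comparisons, with 95% intervals, filled squares for an adjusted p under 0.05 and open circles for the rest. Both Piwi-MatKD_2 comparisons lie below 0 for all 7 genes, with Kr alone as filled squares, and every Piwi-MatKD_1 interval spans 0.

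The Piwi-MatKD_1 embryos gave another picture. None of the 7 genes passed in limma against GFP-MatKD, with 0.186% of all features passing, and none had an unadjusted p under 0.05, as 2.85% of all features did. The log2 differences ran from -0.43 for gt to 0.07 for kni, and edgeR and DESeq2 called none either, with 0.22% and 0.543% of all features called. Complete separation towards lower values was found for 0 of 7 genes and for 5.12% of all features. Intervals were wide: the 95% interval ran from -1.53 to 1.26 for Kr and from -2.75 to 1.90 for gt, so changes of moderate size in either direction could not have been seen. Group means stood between 73.5% (tll) and 101.6% (btd) of the control mean. Piwi-MatKD_1 replicate 2, the library with muscle RNA, held the highest value of kni, gt and hkb, and of Kr, in its group. The part of that library's late embryo RNA in these levels was not tested; without it, the count of genes past the threshold was again 0.

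The 2 knockdown lines were compared directly, which is the test of whether they differ. In limma, Kr was lower in Piwi-MatKD_2 than in Piwi-MatKD_1 by a log2 difference of -3.45 (SE 0.62, adjusted p 0.0239), and the other 6 genes did not pass, while 2.22% of all features did, 1.01% as lower. Their log2 differences were -3.12 for gt, -2.62 for hkb, -2.57 for tll, -2.26 for kni, -2.00 for knrl and -1.57 for btd, with adjusted p from 0.131 to 0.211. All 7 had an unadjusted p under 0.05 in this direction, beside 8.72% of all features. The median of the 7 was -2.57, and it was -1.70 without the 21.6 M library and -3.27 without the 8.5 M library. Kr lost its call without Piwi-MatKD_1 replicate 1 (adjusted p 0.0964), Piwi-MatKD_1 replicate 2 (0.0945) or GFP-MatKD replicate 3 (0.057), and with these groups fitted alone (0.101, with 0.64% of all features called). In edgeR Kr was again the only gene called (2.86% of all features), and DESeq2 called 6, all but knrl (6.91%). The level of piwi RNA itself did not pass between the lines (log2 difference -0.67, adjusted p 0.743 in limma), with a 95% interval from -2.00 to 0.66. This comparison and that with GFP-MatKD share the Piwi-MatKD_2 libraries.

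Within GFP-MatKD and Piwi-MatKD_2, most of the 7 genes ranked the libraries alike. In GFP-MatKD, replicate 1 was the highest and replicate 2 the lowest for 7 of 7 genes. In Piwi-MatKD_2, the 21.6 M library was the lowest for 6 of 7 genes, all but knrl, and the 8.5 M library the highest for 6 of 7, all but Kr. In Piwi-MatKD_1 the genes did not rank alike: replicate 1 was the lowest for 5 genes and the highest for the other 2, knrl and btd. Centred on each gene's control mean, the median log2 level of the 7 genes was 0.72, -0.60 and 0.02 in the control replicates, and -4.38, -1.54 and -2.36 in the 21.6, 8.5 and 73.0 M libraries. A list of 24 other early zygotic genes, such as the dorsal-ventral genes sna and dpp and the cellularisation gene nullo, gave medians of 0.60, -0.63 and 0.01 and of -3.85, -2.04 and -2.30 in the same libraries. Both sets thus had their highest control median in replicate 1 and their lowest median in the 21.6 M library. The part of embryo age, ribosomal RNA content and depth in these levels was not tested. Without the 2 libraries rich in ribosomal RNA, the 73.0 M library was alone in its group, so its spread could not be measured. The log2 difference of Kr from GFP-MatKD was then -2.76, and the other 6 genes were at -1.68 to -2.97.

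**Figure D3:**
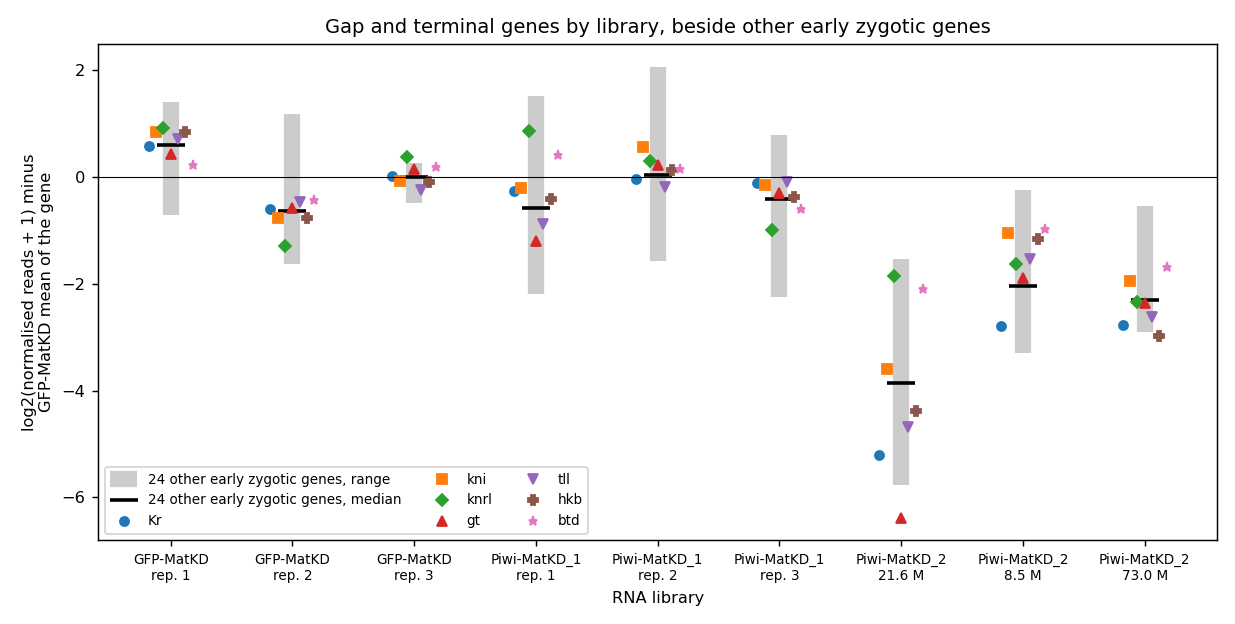
Log2(normalised reads + 1) of each gap and terminal gene minus its GFP-MatKD mean, by RNA library (symbols), over the range (grey) and median (black bar) of 24 other early zygotic genes. All symbols but knrl are lowest in the 21.6 M Piwi-MatKD_2 library, where their median is -4.38, and those of GFP-MatKD and Piwi-MatKD_1 lie between -1.29 and 0.91.

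The mix of the 7 transcripts is given as a description with no test. Kr supplied 33.2 ± 0.63% (SD, n = 3) of the reads on the 7 genes in controls, 35.0 ± 4.65% in Piwi-MatKD_1 and 22.4 ± 5.49% in Piwi-MatKD_2. For kni the share was 10.9 ± 1.66%, 13.1 ± 1.76% and 18.9 ± 3.16% in the same groups. All point values of Kr were lower, and all of kni higher, in Piwi-MatKD_2 than in the other groups. Their intervals for counting error overlapped, however. For Kr the interval was 23.3 to 32.9% in the 73.0 M library and 26.5 to 34.0% in Piwi-MatKD_1 replicate 2. For kni it was 12.3 to 20.1% and 12.1 to 17.9% in these libraries. The share of btd was 2.93 ± 0.60%, 3.57 ± 1.77% and 8.83 ± 6.79%, and that of gt 26.5 ± 3.06%, 23.2 ± 6.31% and 20.1 ± 12.7%. For both genes, values of Piwi-MatKD_2 overlapped those of another group. Mean shares of tll were 18.2%, 16.1% and 18.4%, and those of hkb 6.53%, 6.43% and 6.64%. These shares rest on 18, 59 and 358 reads in the 21.6, 8.5 and 73.0 M Piwi-MatKD_2 libraries and on 311 to 1967 elsewhere. The mix is thus poorly determined in the 21.6 and 8.5 M libraries.

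**Figure D4:**
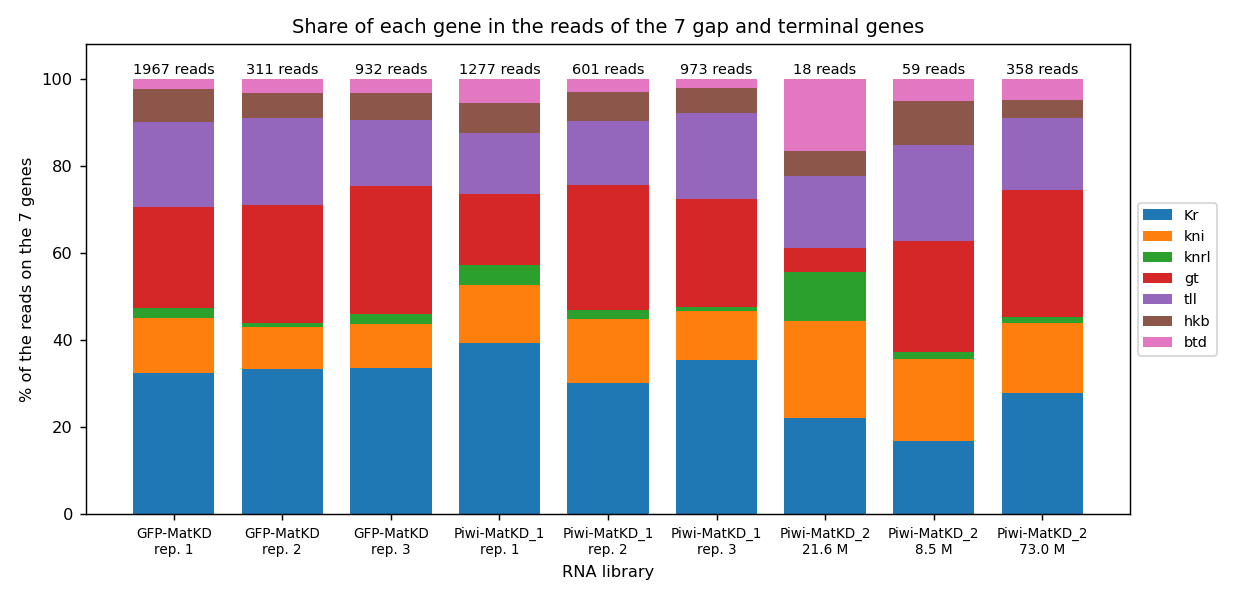
Share (%) of each gene in the reads of the 7 gap and terminal genes, as stacked bars by RNA library with the number of reads above each bar. Kr (bottom) takes a mean of 33.2% in GFP-MatKD and 22.4% in Piwi-MatKD_2, where bars rest on 18 to 358 reads.

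Inputs to the gap and terminal genes showed no called difference in limma. None of 9 maternal factors of the anterior-posterior axis and none of 14 tested genes of maternal terminal signalling passed in any of the 3 comparisons, with medians in Piwi-MatKD_2 against GFP-MatKD of 0.05 and 0.00. The genes brat and osk, the most abundant of the first list (a translational repressor and the organiser of germ plasm), had log2 differences of -0.01 and 0.35. For cic and gro, repressors of terminal genes, the log2 differences were -0.06 and 0.07. None of 4 maternal activators of zygotic transcription passed either. Zelda (zld) was at 17323 ± 2075 normalised reads in controls and 18893 ± 5804 in Piwi-MatKD_2, and Stat92E differed by -0.11 on the log2 scale. Other inputs were named after their values were seen. The levels were, for bcd, 5292 ± 88.0 and 5508 ± 481, and for tor, 5577 ± 485 and 5534 ± 1458, in GFP-MatKD and Piwi-MatKD_2. The largest difference of the first list was that of cad, at 7339 ± 181 and 10752 ± 2037 (log2 difference 0.53, 95% interval 0.13 to 0.94, adjusted p 0.186 in limma), with an unadjusted p of 0.0158. In the second list, fs(1)N had a log2 difference of -0.32 and an unadjusted p of 0.0345 (adjusted p 0.275 in limma). In the same list, trk averaged 184 ± 15.0 normalised reads in GFP-MatKD and 144 ± 18.7 in Piwi-MatKD_2, and did not pass. Both genes lay lower in every Piwi-MatKD_2 library than in any GFP-MatKD library, as did 12.9% of all features.

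Other gap and gap-like genes were read beside the 7. Of 10 tested, 2 fell in Piwi-MatKD_2 against GFP-MatKD in limma, the forkhead gene croc (log2 -3.60, adjusted p 0.0335) and the head gap gene oc (log2 -2.94, adjusted p 0.00882), and the median was -2.36. Of all features, 1.42% passed as lower. In Piwi-MatKD_2, croc ranged from 0 to 1.55 normalised reads, so its fitted fold change depends on the pseudocount. The remaining 8 did not pass, and hb and cnc had small differences, at 8280 ± 827 and 12043 ± 597 normalised reads in controls and 7469 ± 2295 and 14533 ± 1133 in Piwi-MatKD_2. Both are loaded into the egg by the mother as well as transcribed by the embryo. In Piwi-MatKD_1 against GFP-MatKD none of the 10 passed (0.186% of all features), with a median of 0.03. Between the lines 2 were lower in Piwi-MatKD_2 (1.01% of all features).

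Pair-rule genes read the gap gene bands and form stripes. Of 8 tested, 3 fell in Piwi-MatKD_2 against GFP-MatKD in limma, beside 1.42% of all features. The 3 genes were the zinc finger repressor gene odd (log2 -3.83, adjusted p 0.0176), the forkhead gene slp1 (log2 -2.61, adjusted p 0.0474) and the Runt-domain gene run (log2 -2.30, adjusted p 0.0244). The median of the 8 was -2.55. The exception in direction was opa, chosen after its values were seen, at 141 ± 53.0 normalised reads in controls, 268 ± 74.2 in Piwi-MatKD_1 and 242 ± 58.5 in Piwi-MatKD_2 (adjusted p 0.267 in limma for the latter). In Piwi-MatKD_1 against GFP-MatKD none of the 8 passed (0.186% of all features), with a median of -0.14. Between the lines 2 were lower in Piwi-MatKD_2 (1.01% of all features).

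Of the 24 other early zygotic genes tested, 7 fell in Piwi-MatKD_2 against GFP-MatKD, beside 1.42% of all features. All 24 had a log2 difference below 0 and the median was -2.75. The largest called changes were those of the Bearded family genes Ocho (log2 -3.32, adjusted p 0.0245) and BobA (log2 -3.01, adjusted p 0.00882), and of the BMP ligand gene dpp (log2 -2.97, adjusted p 0.0300), all in limma. The median of the 7 gap and terminal genes, -2.84, was near this value. None of the 24 passed in Piwi-MatKD_1 against GFP-MatKD (median -0.28), beside 0.186% of all features. Between the lines, 5 were lower in Piwi-MatKD_2 (median -2.38), beside 1.01% of all features. Of 5 paralogs, eg, dsf and vri were too low to be tested, while Sp1 (3.64 ± 2.61 normalised reads in controls) and Pdp1 (259 ± 47.0) were tested, with log2 differences of -1.82 and 0.09 and none passing. Late embryo markers (11 tested) and follicle cell and adult female markers (5 tested) held no called gene in Piwi-MatKD_2, with medians of 0.25 and -0.61, beside 3.04% of all features called. Their most abundant tested genes, Tm1, Act57B, Cp36 and Yp3, were among those that did not pass.

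**Figure D5:**
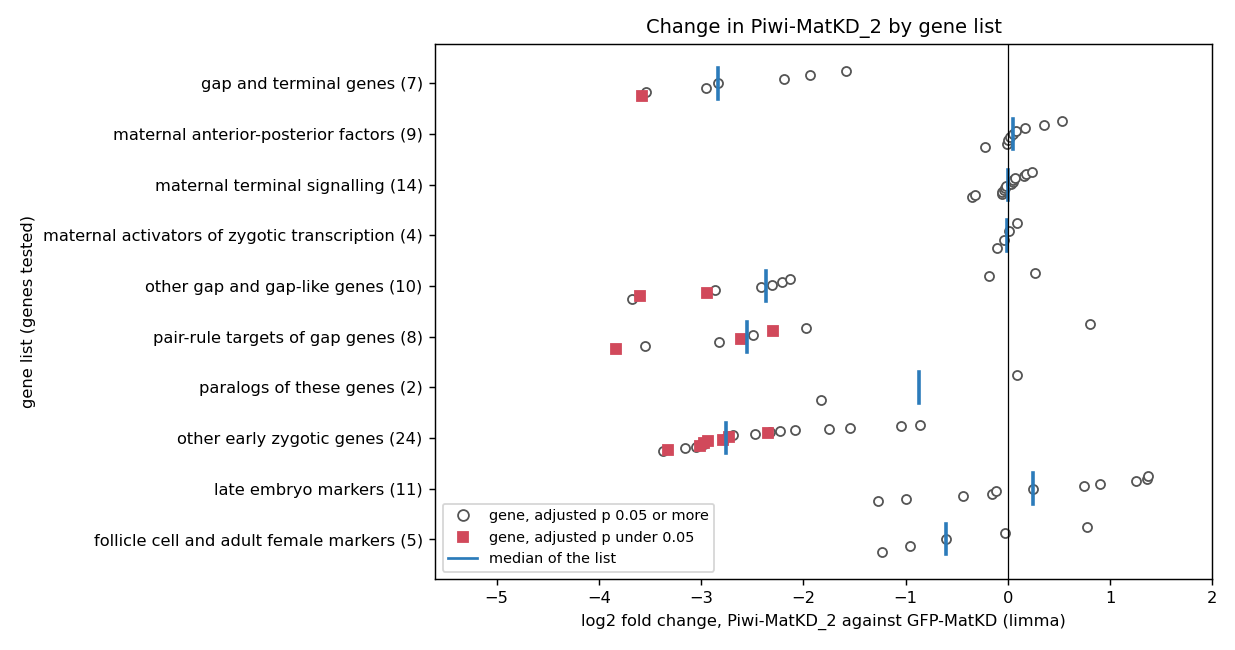
Log2 fold change in limma, Piwi-MatKD_2 against GFP-MatKD, for each tested gene of the lists named at the left (number tested in brackets; height within a row only spreads the points), red squares for an adjusted p under 0.05 and a blue line at each median. Gap and terminal genes have a median of -2.84, beside -2.75 for other early zygotic genes and values near 0 for the maternal lists.

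Among 7977 features with a mean of at least 20 normalised reads, those closest in pattern over the 9 libraries were found by the root mean square difference of centred log2 levels. For Kr these were odd (0.32) and the ubiquitin ligase adaptor gene phyl (0.37), beside a median of 2.20 over all candidates. The nearest to kni were the insulin-like peptide gene Ilp4 (0.26) and CG13868 (0.27), and those to knrl the protease gene rho (0.40) and GEFmeso (0.40). The nearest to gt were mas (0.38) and the mesoderm repressor gene sna (0.50). For the terminal genes, halo (0.26) and the pair-rule gene ftz (0.27) were nearest to tll, and ftz (0.19) and the Wnt deacylase gene Notum (0.28) to hkb. For btd they were CG30015 (0.24) and asRNA:CR44095 (0.30). The mean profile of the 7 genes lay closest to CG13868 (0.24), slp1 (0.26), Ppa (0.26), Egfr (0.28) and lncRNA:roX1 (0.29). Between the 7 genes themselves, hkb and tll were the closest pair (0.31) and gt and knrl the most distant (1.71). All these measures share the same 9 libraries.

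Few small RNA reads fell on the 7 genes. Libraries held 1.88 to 3.38 M expected counts in all, and the expected counts at a member ran from 0 to 15.81 per library, the highest being gt in GFP-MatKD replicate 1. At Kr, tll and hkb no library exceeded 3 counts, the limit that a count of 0 allows. More than 3 counts were found at gt in 5 of 9 libraries, at knrl in 4, and at kni and btd in 2 each. In GFP-MatKD, gt had 23.87 expected counts over its 3 libraries, beside 10.78 in Piwi-MatKD_1 and 7.2 in Piwi-MatKD_2, too few to set the groups apart. None of the 7 genes passed edgeR's filter on low counts. When all 12448 features with a count were tested, 6 of the 7 entered, 0 passed and 0 had an unadjusted p under 0.05, the lowest p being 0.129 in edgeR, while 2.18% of features passed in Piwi-MatKD_2 and 1.85% in Piwi-MatKD_1 against GFP-MatKD, and 1.4% between the lines.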

How the data were processed

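Per the labels' protocols, whole embryos were extracted with TRIzol, and libraries were made with TruSeq stranded mRNA or TruSeq small RNA kits. The submitters' processing notes name cutadapt, Bowtie 1.2.2, featureCounts and the BDGP6 build, without roles. The RNA table deposited by the authors holds a normalised signal: 100% of its values were whole multiples of 1 step per library within 0.002, so whole reads were recovered for count models. The small RNA table deposited by the authors holds expected counts, which were rounded. A RefSeq gene table (Release 6 plus ISO1 MT, the assembly that BDGP6 names) gave symbols for 17671 of 17768 RNA gene IDs. Counting by strand is not stated, so genes that overlap are uncertain. RNA values were tested as log2(value + 1) in limma 3.58.1 (lmFit, eBayes with a trend) over 9 libraries and the 10767 features that reached a value of 1 in 3 or more libraries, with Benjamini-Hochberg adjustment and a threshold of 0.05. For small RNA, edgeR 4.0.16 was used with its quasi-likelihood test, TMM factors and filterByExpr. Alternatives used edgeR, DESeq2 1.42.0, other scalings, filters, pseudocounts, weights and left-out libraries, in R 4.3.3. Plots used matplotlib 3.10.9 in Python 3.11.15. The procedure was tested on simulated data. Changes were set there only in features of higher mean level, so that test does not cover genes with few reads.

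The RNA columns of Piwi-MatKD_2 matched their group alone. The members and gene lists were chosen with earlier results of these data known. Named genes were the 7 members, piwi, the 2 features nearest to each member and 5 nearest to their mean in pattern, and from each list up to 3 called genes with the largest change in Piwi-MatKD_2 against GFP-MatKD, or the 2 most abundant where none was called. Of 105 listed genes, 104 were found, 5 under another symbol. No genome was used, so promoter motifs and sequences were not analysed here.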

Additional observations from a re-analysis of the deposited data

Results flagged for a closer look

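The difference between the knockdown lines at Kr stood out because it was tested directly: Kr was lower in Piwi-MatKD_2 than in Piwi-MatKD_1 by a log2 difference of -3.45 (adjusted p 0.0239 in limma). Libraries of Piwi-MatKD_1 lay between 224 and 262 normalised reads, and those of Piwi-MatKD_2 between 6.28 and 38.7. The call was lost in 4 of 20 alternatives, over which the adjusted p ran from 9.25e-08 to 0.101.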

How the results depend on the processing

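The number of the 7 genes past the threshold depended on the processing in both Piwi-MatKD_2 comparisons. Against GFP-MatKD it was 1 in the limma test, 6 in DESeq2, 7 with array quality weights and 0 with the groups alone. Leaving out each library in turn gave 0 to 3, beside 1.1% to 3.76% of all features. Against Piwi-MatKD_1 it was 1, then 6 in DESeq2 and 0 with the groups alone. On leaving out each library it was 0 to 2, beside 0.887% to 3.21% of all features. All features moved too: array quality weights called 1826 of them against GFP-MatKD, 17% of those tested, so the 7 are to be read against that. The direction was lower for all 7 genes in both comparisons under all 20 alternatives. Every Piwi-MatKD_2 value lay below every value of the other groups, so left-out libraries, filters, pseudocounts and weights could not have turned it. In Piwi-MatKD_1 against GFP-MatKD the count was 0 under all 21 alternatives. Scaling by library totals moved the median of all features by -0.19 and -0.21 (log2) in the Piwi-MatKD_2 comparisons; Kr was then at -3.72 and -3.60. The count of small RNA genes past the threshold was 0 throughout.

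Signs of the uncalled Piwi-MatKD_1 differences from GFP-MatKD turned in some settings. For btd they became 0.00012 with a pseudocount of 8, 0.0035 with library totals, 0.0040 in edgeR and 0.00039 in DESeq2. For kni they became -0.065 in edgeR, -0.056 in DESeq2 and -0.13 with weights, and for knrl -0.065, -0.040 and -0.49 under the same 3 methods. Leaving out each library in turn gave log2 differences from -0.44 to 0.15 for Kr, -0.31 to 0.49 for kni, -0.58 to 0.59 for knrl, -0.60 to 0.20 for hkb and -0.23 to 0.29 for btd. The cause was not tested.

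Replicate numbers are shared by GFP-MatKD and Piwi-MatKD_1 in the labels. Deviations of same-numbered libraries correlated at -0.13, -0.23 and -0.30. Differently numbered libraries were not compared, so these values cannot settle whether a number marks a shared batch. With the replicate block, fitted to the libraries of these groups alone, 0 of the 7 genes and 3 features passed. Without the block, these groups fitted alone gave 28 of 10486 features. In the small RNA table the block also gave 0. Piwi-MatKD_2 columns of the RNA table are numbered too, but their names are also labels of small RNA libraries. They were matched to the group only, so no paired fit was made there. Counting error is widest where members hold few reads: the 7 genes together held 18, 59 and 358 reads in the Piwi-MatKD_2 libraries. The first of these had 21.6 M reads in all, 10.9% of them ribosomal. GFP-MatKD replicate 2, with 311 reads on the 7 genes, had 16.5 M and 0.252%. The part of depth and ribosomal RNA in these counts was not tested. With a pseudocount of 8, the median log2 difference of the 7 genes from GFP-MatKD was -1.93 in place of -2.84.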
